A study of Homo sapiens with 12 samples.

Results

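KLHDC7B, LAMP3 and INSC were 3 of the 28278 genes in a table of RNA-seq counts from human motor neuron cultures exposed to the organochlorine insecticide cis-chlordane. They were chosen by name as among the largest rises in treated GFP-positive cells, so their rise in that fraction is a description here and carries no test. The cells were WA09-Islet1-GFP, an established line of human embryonic stem cells in which GFP marks expression of Islet1, a transcription factor of motor neurons. Its motor neuron cultures received 10 µM cis-chlordane, per the labels, or DMSO for 16 hours and were sorted by FACS on GFP. The 4 groups, control GFP-positive, treated GFP-positive, control GFP-negative and treated GFP-negative, hold 3 biological replicates each, all wild-type by their labels. The study's methods describe a replicate as a separate thaw of stored cells and name a higher dose than the labels. All groups come from this 1 cell line. The titles of the treated samples also begin with the word untreated, and treatment was taken from the treatment entry, which matches the table's column names.

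The proteins of these genes belong to different parts of the cell. KLHDC7B encodes a protein with kelch repeats, a fold that often mediates binding between proteins, and its own role is little known. LAMP3, also called DC-LAMP, is a glycoprotein of the lysosomal membrane that marks mature dendritic cells and lung type II cells, and it is known to be induced through ATF4, the transcription factor of the integrated stress response. INSC is the human inscuteable protein, an adaptor that links GPSM2 to the PAR polarity complex and helps to set the direction of the mitotic spindle in dividing cells. None of them is a known marker of motor neurons.

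On hg38, KLHDC7B lies at chr22:50545899-50551023 on the plus strand and has a single exon of 5125 bases. LAMP3 lies at chr3:183122215-183163839 on the minus strand, with 10 exon blocks and 3785 exonic bases. INSC spans chr11:15112424-15247208 on the plus strand, with 18 exon blocks and 3450 exonic bases. No other gene of the GENCODE annotation overlaps any of them.

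Promoter sequence from RefSeq (GRCh38.p14) was matched for KLHDC7B and INSC. It is shown because targets of ATF4 rose in the same libraries, and ATF4's complexes with C/EBP proteins bind the C/EBP-ATF response element (CARE), TGATGNAA. The first line gives the 250 bases before the KLHDC7B start, chr22:50545649-50545898, plus strand, with the CARE match in capitals. The second gives the 250 bases before the first INSC start, chr11:15112174-15112423, plus strand, where no searched motif was found.
KLHDC7B: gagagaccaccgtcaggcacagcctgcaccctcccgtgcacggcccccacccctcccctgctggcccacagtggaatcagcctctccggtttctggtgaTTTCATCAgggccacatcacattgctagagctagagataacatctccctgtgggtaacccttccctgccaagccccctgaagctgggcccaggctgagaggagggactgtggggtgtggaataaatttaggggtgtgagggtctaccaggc
INSC: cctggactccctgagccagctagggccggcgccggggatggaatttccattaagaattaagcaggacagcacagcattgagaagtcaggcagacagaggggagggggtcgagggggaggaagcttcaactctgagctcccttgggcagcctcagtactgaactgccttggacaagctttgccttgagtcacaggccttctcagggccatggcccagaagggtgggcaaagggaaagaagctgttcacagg

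The CARE match of KLHDC7B is on the reverse strand, TTTCATCA, and begins 151 bases before the start. Both strands were searched from 250 bases before to 50 bases after each start, and 1270 of 35116 promoters (3.62%) hold these letters. The 4 promoters of KLHDC7B and INSC held no match to the cAMP response element TGACGTCA (1.85% of promoters), the UPR element TGACGTGG (0.729%), the ER stress element (0.0769%), the hypoxia element ACGTG (21.4%) or the interferon-stimulated response element (3.57%). The letters of the hypoxia element lie within those of the UPR element. A match in such a window is a description and not a site, and the table lists 3 starts for INSC.

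Each library held between 23414935 and 38347050 counts assigned to genes (median 31553596), so that 1 count corresponds to well under 0.1 CPM. CPM here are counts scaled to a common library total, with TMM factors over all 12 libraries. ISL1, the gene that the sort follows, stood at 66.1, 62.3 and 68.6 CPM in control GFP-positive and at 2.50, 2.41 and 2.80 CPM in control GFP-negative libraries. In treated libraries it stood at 8.01, 15.3 and 12.6 CPM in GFP-positive and at 0.388, 0.691 and 0.566 CPM in GFP-negative cells. The summed level of 7 motor neuron markers was 1712 to 1914 CPM in control and 506 to 698 CPM in treated GFP-positive libraries, against 296 to 341 CPM and 105 to 141 CPM in GFP-negative libraries. Thus the label held for the sort in both treatments, while motor neuron markers were lower after treatment in both fractions. In bulk RNA, fewer cells of a type cannot be told apart from less RNA per cell. One library stood apart: control GFP-negative replicate 3 held 710 counts of PTPRC, the leukocyte antigen CD45, where the other controls of that fraction held 0.

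KLHDC7B was close to silent in every control library and rose to between 18.5 and 41.3 CPM in the treated libraries. In GFP-positive cells its counts were 3, 8 and 0 in control replicates 1, 2 and 3 (0.112, 0.232 and 0 CPM) and 1193, 1000 and 700 in treated replicates (35.8, 28.6 and 18.5 CPM). In GFP-negative cells its counts were 19, 8 and 4 in controls (0.624, 0.235 and 0.160 CPM) and 910, 1136 and 898 in treated replicates (39.3, 41.3 and 31.8 CPM). The treated libraries lay far above the controls in both fractions, and the highest control level, in GFP-negative replicate 1, was still under 1 CPM.

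The mean level of KLHDC7B went from 0.1145 ± 0.116 to 27.7 ± 8.67 CPM in GFP-positive cells (SD, n = 3). In GFP-negative cells it went from 0.340 ± 0.249 to 37.4 ± 5.01 CPM (SD, n = 3). Treated GFP-positive libraries spread 1.93-fold from lowest to highest, the widest of the 3 genes in that group by coefficient of variation (31.4%). The treated libraries of the fractions overlapped in KLHDC7B level. Within cultures of the same number, the treated GFP-negative level was 109.7%, 144% and 171% of the GFP-positive level for replicates 1, 2 and 3.

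LAMP3 was likewise near silent in controls and was the highest of the 3 in mean treated CPM. Its counts in GFP-positive cells were 6, 5 and 3 in controls (0.224, 0.145 and 0.0960 CPM) and 1229, 1170 and 1298 in treated replicates (36.9, 33.5 and 34.4 CPM). In GFP-negative cells they were 43, 16 and 19 in controls (1.41, 0.470 and 0.759 CPM) and 1158, 1275 and 938 in treated replicates (50.0, 46.3 and 33.2 CPM). Treated libraries were again all above the controls, and the treated libraries of both fractions overlapped, with GFP-negative levels of 136%, 138% and 96.6% of the GFP-positive level in the same cultures.

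LAMP3 averaged 34.9 ± 1.76 CPM in treated GFP-positive libraries against 0.155 ± 0.0644 CPM in controls (SD, n = 3). These treated libraries differed by 1.10-fold from lowest to highest (coefficient of variation 5.03%), while treated GFP-negative libraries varied more (20.5%, against 13.4% for KLHDC7B). In GFP-negative libraries it averaged 43.2 ± 8.83 CPM against 0.880 ± 0.483 CPM (SD, n = 3). Among controls, LAMP3 was at 0.470 to 1.41 CPM in GFP-negative and 0.0960 to 0.224 CPM in GFP-positive libraries. How many of all genes separate the control fractions in this way was not counted.

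INSC remained a low transcript even after treatment. Its counts in GFP-positive cells were 0, 2 and 0 in controls (0, 0.0579 and 0 CPM) and 118, 113 and 82 in treated replicates (3.54, 3.23 and 2.17 CPM). In GFP-negative cells they were 3, 0 and 1 in controls (0.0985, 0 and 0.0400 CPM) and 39, 26 and 36 in treated replicates (1.68, 0.945 and 1.27 CPM). Treated and control libraries did not overlap in either fraction. Unlike KLHDC7B and LAMP3, INSC was higher in all treated GFP-positive than in all treated GFP-negative libraries, which held 47.5%, 29.2% and 58.7% of the level of the GFP-positive library of the same number. The share of all genes with such a separation of the treated fractions was not counted, so it may be common.

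Means for INSC were 0.0193 ± 0.0334 and 2.98 ± 0.719 CPM in control and treated GFP-positive libraries, and 0.0462 ± 0.0495 and 1.30 ± 0.370 CPM in control and treated GFP-negative libraries (SD, n = 3). Per kb of exon, the mean treated level in GFP-positive cells was 5.40 CPM for KLHDC7B, 9.22 CPM for LAMP3 and 0.864 CPM for INSC. In GFP-negative cells the same length-corrected levels were 7.31, 11.4 and 0.377 CPM. LAMP3 was therefore first and INSC last in both fractions on the per-length scale.

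**Figure D1:**
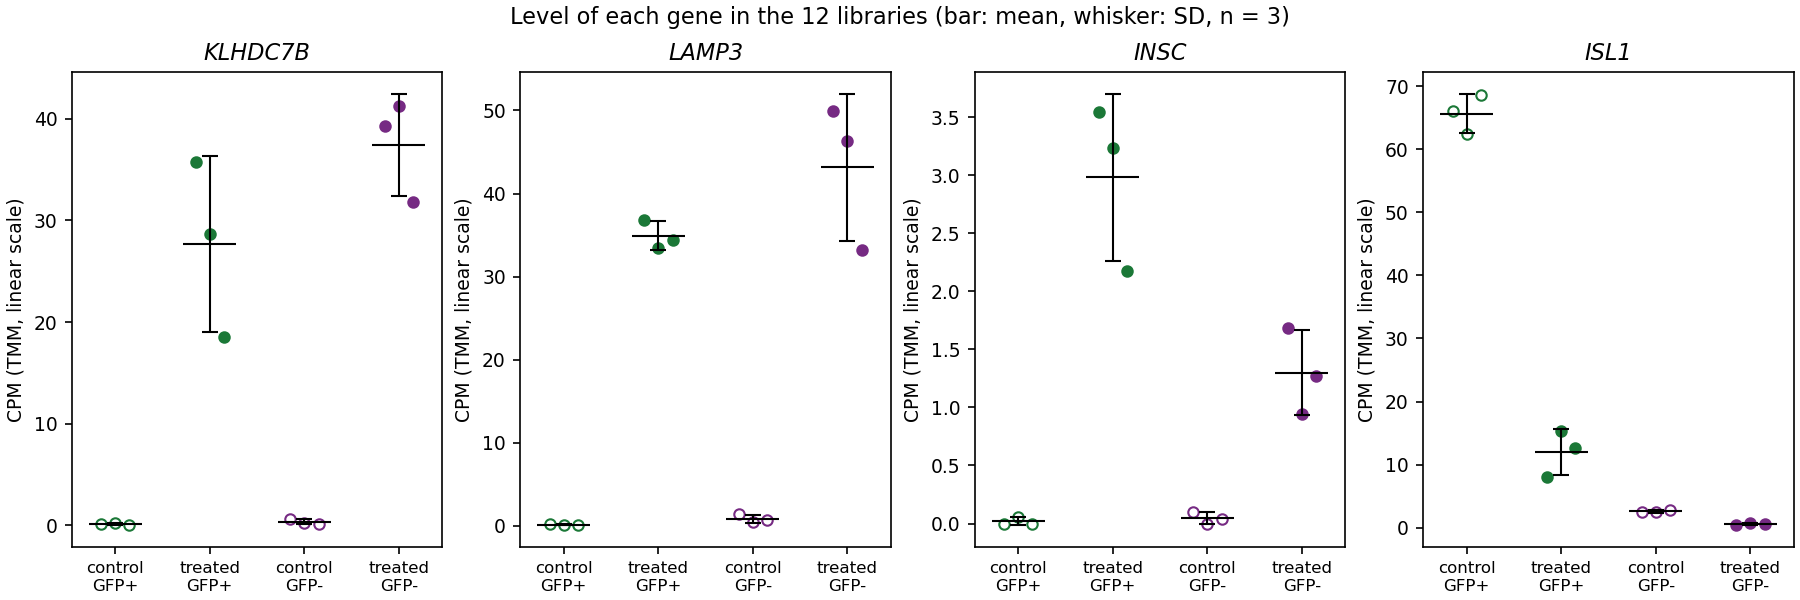
Level in CPM (linear vertical axis, TMM over 12 libraries) of KLHDC7B, LAMP3, INSC and ISL1 in the 4 groups; open points are control and filled points treated libraries, green GFP-positive and purple GFP-negative, with a bar for the mean and whiskers for the SD of 3 libraries. KLHDC7B and LAMP3 reached 18.5 to 50.0 CPM in treated libraries of both fractions, INSC was higher in treated GFP-positive (2.17 to 3.54 CPM) than treated GFP-negative libraries (0.945 to 1.68 CPM), and ISL1 went the other way with treatment.

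The GFP-negative libraries were not used to choose the genes and allow a test, although they came from the same cultures. Treated were compared with control GFP-negative libraries by edgeR's quasi-likelihood test across 15513 genes with Benjamini-Hochberg adjustment. A gene was called when its adjusted p was under 0.05 and its fold change at least 2. Of the genes tested, 8.59% were called higher and 9.75% lower, and all 3 of KLHDC7B, LAMP3 and INSC were among them. KLHDC7B rose by a log2 fold change of 6.73 (SE 0.40, edgeR adjusted p = 1.1e-05) and ranked 7 of 15513 by that value. LAMP3 rose by 5.59 (SE 0.38, edgeR adjusted p = 1.9e-05) and ranked 15. INSC rose by 4.70 (SE 0.72, edgeR adjusted p = 0.0012) and ranked 31. With control counts of 19, 8 and 4 for KLHDC7B and 3, 0 and 1 for INSC, both passed the filter (minimum count 10) only through the treated libraries. Genes that enter in this way can hardly be called lower, which limits what their calls and ranks show. Groups did not overlap, with treated higher, for 24% of all genes tested. For 1 gene alone, 3 libraries against 3 allow an exact permutation p no lower than 0.1.

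The few control counts set the precision of these values. Depth-corrected ratios of summed counts, treated over control, were 107.7 for KLHDC7B (95% exact interval 75.7 to 159), 49.0 for LAMP3 (39.2 to 62.2) and 28.6 for INSC (10.8 to 107), the last from 101 against 4 counts. These intervals cover counting error only. Without control GFP-negative replicate 1, which had the most control counts of each gene, the log2 fold changes were 7.48 for KLHDC7B, 6.14 for LAMP3 and 5.89 for INSC. Without replicate 2 of these controls, INSC stood at 4.08.

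In GFP-positive cells, the contrast that chose the genes, log2 fold changes were 7.89 for KLHDC7B (SE 0.39), 7.88 for LAMP3 (SE 0.31) and 6.95 for INSC (SE 0.62). They ranked 5, 6 and 12 of 15333 genes, of which 12.8% were called higher and 11.2% lower, and treated was higher without overlap for 26.9%. The ratios of summed counts were 229.7 for KLHDC7B (95% exact interval 128 to 461), 230.7 for LAMP3 (137 to 422) and 136.7 for INSC (37.5 to 1134). INSC rests there on 2 control counts, both in replicate 2, so its fitted fold change depends on the prior count of the fit.

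The genes on either side in that order were STRIT1 (7.99, from 0 to 0.939 CPM), a regulator of the calcium pump SERCA, before KLHDC7B, and the stress hormone GDF15 (7.61, from 0.531 to 101 CPM) after LAMP3. OLAH, a thioesterase of fatty acid synthesis, stood before INSC (7.19, from 0 to 0.534 CPM). The antisense transcript UNC5B-AS1 followed it (6.86, from 0.123 to 13.7 CPM). STRIT1 and OLAH had no counts in the control libraries, which makes their fitted values dependent on the prior count, and reached under 1 CPM.

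In treated cells the GFP-negative level was 4.62% of the GFP-positive level for ISL1, against 136.7% for KLHDC7B, 122% for LAMP3 and 43.3% for INSC, all as ratios of summed, depth-corrected counts. In controls the same share was 3.89% for ISL1. The ratio of control GFP-negative to control GFP-positive cells was 5.76 for LAMP3 (95% exact interval 3.24 to 11.0) and 2.92 for KLHDC7B (1.43 to 6.43), both intervals for counting error only. The KLHDC7B ratio rests on control GFP-negative replicate 1, with 19 of 31 counts: by number it was 558% in replicate 1 and 101% in replicate 2, and replicate 3 had 0 GFP-positive counts. For INSC it was 2.07 (0.296 to 22.9), from 4 against 2 counts. The control fractions overlapped for KLHDC7B and INSC.

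A count of genes with the same starting point places these values in the whole table. A mean under 0.2 CPM in control GFP-positive libraries and at least 1 CPM in treated ones was found for 54 of the 6871 genes that had any count and lay under that limit (0.786%). For a few of the 54 the SD of the treated GFP-positive libraries exceeded their mean, so not all rose evenly across replicates. LAMP3 and KLHDC7B had the highest treated GFP-positive levels of these 54, and INSC ranked 17. After UNC5B-AS1 at 13.7 CPM came DMGDH, a mitochondrial dehydrogenase of choline breakdown, at 12.6 CPM. GPAT3, an acyltransferase of glycerolipid synthesis, followed at 9.59 CPM. These genes were picked for their rise in GFP-positive cells of the same cultures. Of the 54, 45 were tested in GFP-negative cells. There edgeR called 33 higher, KLHDC7B, LAMP3 and INSC among them, against 8.59% of all genes. Genes low in both groups were not tested, so 33 of 45 is not a share of all 54. Several of the 45, such as INSC (0.0462 CPM) and UNC5B-AS1 (0.0790 CPM), were near 0 in control GFP-negative libraries. Such genes pass the filter through the treated libraries and can hardly be called lower. That 0 were called lower, also at an unadjusted p under 0.05 or by DESeq2, therefore cannot be set against the 9.75% of all genes. In GFP-negative cells DMGDH went from 0.0962 to 7.27 CPM and GPAT3 from 1.25 to 35.8 CPM.

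**Figure D2:**
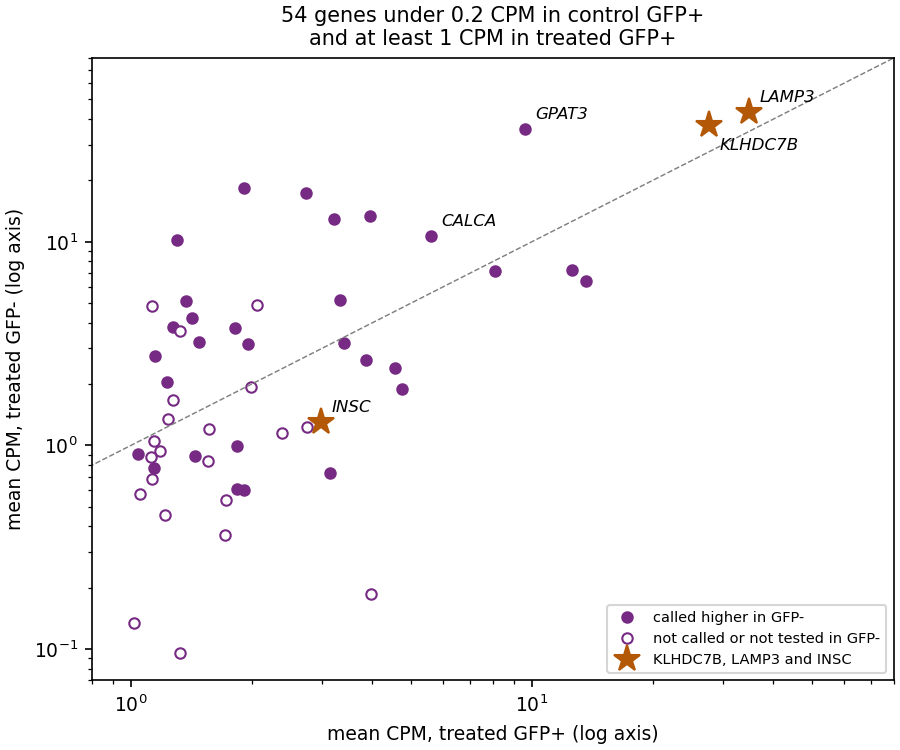
Mean CPM in treated GFP-positive libraries (horizontal log axis) against treated GFP-negative libraries (vertical log axis) for the 54 genes under 0.2 CPM in control GFP-positive and at least 1 CPM in treated GFP-positive libraries; filled points were called higher in GFP-negative cells, stars are KLHDC7B, LAMP3 and INSC, and the dashed line marks equal levels. KLHDC7B (27.7 and 37.4 CPM) and LAMP3 (34.9 and 43.2 CPM) lie at the upper right, and INSC (2.98 and 1.30 CPM) lies below the line.

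The other LAMP genes, all expressed in control cells, moved far less than LAMP3, and not in 1 direction. LAMP2, a lysosomal membrane protein needed for chaperone-mediated autophagy, rose in both fractions. Its level was 37.5, 53.0 and 74.4 CPM in control and 120.5, 121.5 and 126.8 CPM in treated GFP-negative libraries, without overlap (log2 fold change 1.14, edgeR adjusted p = 0.0047). Without control replicate 1 it was at 0.93, under a fold of 2. In GFP-positive libraries it was 53.0, 54.4 and 71.7 CPM in control and 138.3, 139.0 and 167.1 CPM in treated cells (log2 fold change 1.38).

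LAMP1, the most common glycoprotein of the lysosomal membrane, was not called, at log2 fold changes of 0.50 in GFP-negative and 0.15 in GFP-positive cells. LAMP5, a LAMP protein of neurons, fell in both, by 1.58 and 1.48 on the log2 scale. CD68, a LAMP-related glycoprotein abundant in macrophages, rose in GFP-positive cells by a log2 fold change of 2.95. In GFP-negative cells CD68 was at 0.86 (edgeR adjusted p = 0.19). There its control level was highest in replicate 3, the library with PTPRC counts, at 7.59 CPM against 2.92 and 1.76 CPM, and without that library CD68 was called at 1.65 (edgeR adjusted p = 0.0021). Thus 1 of 4 other LAMP genes was called higher and 1 lower in GFP-negative cells (2 higher without that library), and 2 higher and 1 lower in GFP-positive cells, with medians of 0.68 and 0.77. Of all genes, 8.59% and 9.75% were called higher and lower in GFP-negative cells, and 12.8% and 11.2% in GFP-positive cells. All genes tested had medians of -0.01 and 0.03.

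LAMP3 also marks mature dendritic cells, so 11 immune and dendritic markers were summed. Their level was 3.36 to 4.36 CPM in control and 3.41 to 8.16 CPM in treated GFP-positive libraries, and 14.3 to 178.7 CPM in control and 20.1 to 34.4 CPM in treated GFP-negative libraries. CCL19 and AIF1 had 0 counts in all 4 groups. In GFP-negative cells CD74, the class II invariant chain, had 252, 272 and 2681 counts in controls and 196, 119 and 185 in treated replicates. The library with 2681 counts was again control replicate 3.

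PTPRC had 0, 0 and 710 counts in those controls and 23, 0 and 16 in treated replicates. LAMP3 in control replicate 3 (0.759 CPM) lay between the other controls of its fraction, and LAMP3 was at 46.3 CPM in treated replicate 2, where PTPRC had 0 counts. CCR7, the chemokine receptor of migrating dendritic cells, rose with LAMP3 in both fractions (log2 fold change 2.18 in GFP-negative and 3.996 in GFP-positive cells). It had 63, 33 and 188 counts in control and 265, 345 and 673 counts in treated GFP-negative libraries. In GFP-positive libraries CCR7 had 3, 3 and 14 counts in control and 84, 47 and 231 counts in treated cells. CD83, another dendritic marker, had 199, 176 and 121 counts in control and 62, 74 and 73 in treated GFP-negative libraries. The part of immune cells in the LAMP3 level was not tested. Without control GFP-negative replicate 3 the log2 fold changes of KLHDC7B, LAMP3 and INSC in that fraction were 6.43, 5.51 and 4.64 (edgeR adjusted p = 2.4e-06, 9.9e-06 and 0.0014).

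Of 8 other KLHDC genes tested, edgeR called 0 higher in GFP-negative cells (2 at an unadjusted p under 0.05, 0 by DESeq2) and 1 lower, where 8.59% of all genes were called higher and 9.75% lower. In GFP-positive cells 1 was called higher and 2 lower, against 12.8% and 11.2% of all genes. Medians were -0.11 and -0.41. KLHDC7A, its closest relative by name, stayed at about 0.1 CPM or less in each group and was too low to test. KLHDC8A fell by 1.12 in GFP-negative cells (115.7 to 53.8 CPM) and by 2.05 in GFP-positive cells on the log2 scale. KLHDC8B fell by 1.50 in GFP-positive cells (205.4 to 69.3 CPM). KLHDC1 was called higher there at 1.12 (0.539 to 1.12 CPM), a call that was lost in the fit of 12 libraries (edgeR adjusted p = 0.062) and without control replicate 1, control replicate 2, treated replicate 1 or treated replicate 3 (0.055 to 0.088).

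The partners of INSC were followed as well. Of 21 genes of its complexes and of spindle orientation, edgeR called 0 higher in GFP-negative cells (4 at an unadjusted p under 0.05, 0 by DESeq2) and 2 lower, against 8.59% and 9.75% of all genes. In GFP-positive cells 3 were called higher and 2 lower, against 12.8% and 11.2%. Medians were 0.10 and -0.30. The count of higher genes in GFP-positive cells was 1 without control replicate 1 or treated replicate 1 and 4 without control replicate 3, and 2 lower became 3 without control replicate 1 or treated replicate 1 and 4 without treated replicate 2. Leaving out control GFP-negative replicate 3 gave 3 higher in the GFP-negative cells. FRMPD1, which binds proteins of the GPSM family, fell in both fractions, by 2.52 in GFP-negative and 2.35 in GFP-positive cells on the log2 scale, the first call being lost when treated replicate 1 or 2 or control replicate 2 was left out. PARD6G, a PAR6 polarity protein, fell by 1.22 in GFP-negative cells, from 27.5 to 12.0 CPM (-0.997 without treated replicate 3).

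Its relative PARD6B rose by 1.09 in GFP-positive cells, and the scaffold DLG1 by 1.04. FRMPD4, a synaptic scaffold related to FRMPD1, rose there by 2.77, from 2.27 to 14.7 CPM. GNAI2, a G protein subunit that GPSM proteins bind, fell by 1.16 in GFP-positive cells. Direct binding partners of INSC were not called: GPSM2 stood at -0.24 in GFP-negative and 0.62 in GFP-positive cells, and PARD3 at 0.36 and -0.04.

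Targets of ATF4 and CHOP, the transcription factors of the integrated stress response, rose throughout. All 21 tested genes of that list were called higher in both fractions, with medians of 3.05 in GFP-negative and 2.95 in GFP-positive cells, against 8.59% and 12.8% of all genes. In GFP-negative cells the pseudokinase gene TRIB3 rose by a log2 fold change of 4.49 (32.8 to 750.1 CPM). The peptide hormone gene ADM2 rose by 4.43. SLC7A11, the cystine transporter, and SLC3A2, its partner chain, rose by 3.98 and 3.73.

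In GFP-positive cells SLC7A11 rose by 5.63 (0.817 to 38.97 CPM), the transcription factor ATF3 by 4.54 and the secreted glycoprotein STC2 by 4.49. The NUPR1 gene of this list was too low to test. In GFP-negative cells the fitted folds of KLHDC7B and LAMP3 were above those of every gene named here from the list. The same order in GFP-positive cells follows from how the 2 genes were chosen and says nothing more. The list's named genes began from higher control levels.

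Interferon-stimulated genes, among which LAMP3 is often counted in immune cells, did not move as a block. In GFP-negative cells 3 of 21 tested were called higher and 5 lower (median -0.11), against 8.59% and 9.75% of all genes. Without control replicate 3 the counts were 5 higher and 3 lower of 22 (median 0.15). The antiviral GTPase genes MX1 and MX2 rose by 1.61 and 1.02, and the transcription factor IRF7 by 1.52. IFIT1 fell by 2.80 and OAS1 by 1.61 on the log2 scale, and the calls of IRF7 and OAS1 did not survive the removal of some single libraries. In GFP-positive cells 5 of 17 were called higher and 4 lower (median 0.55), against 12.8% and 11.2% of all genes. There MX1 rose by 4.02, IRF1 by 3.68 and IFIT3 by 3.04, and IFITM1 fell (log2 fold change -2.09). The list thus held calls in both directions in each fraction.

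Of the hypoxia targets, 7 of 18 were called higher and 1 lower in GFP-negative cells (median 0.79), against 8.59% and 9.75% of all genes. In GFP-positive cells 6 of 17 were called higher and 1 lower (median 0.84), against 12.8% and 11.2%. VEGFA, the angiogenic growth factor, rose by 3.34 and 4.10 in these fractions. HK2, the first enzyme of glycolysis, rose by 3.95 in GFP-positive cells, from 7.39 to 109.4 CPM. The gene called lower was LDHA in GFP-negative cells (log2 fold change -1.08) and PFKFB4 in GFP-positive cells (-1.32). LDHA was at -0.76 in GFP-positive cells, not called, so the list did not move in 1 direction.

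**Figure D3:**
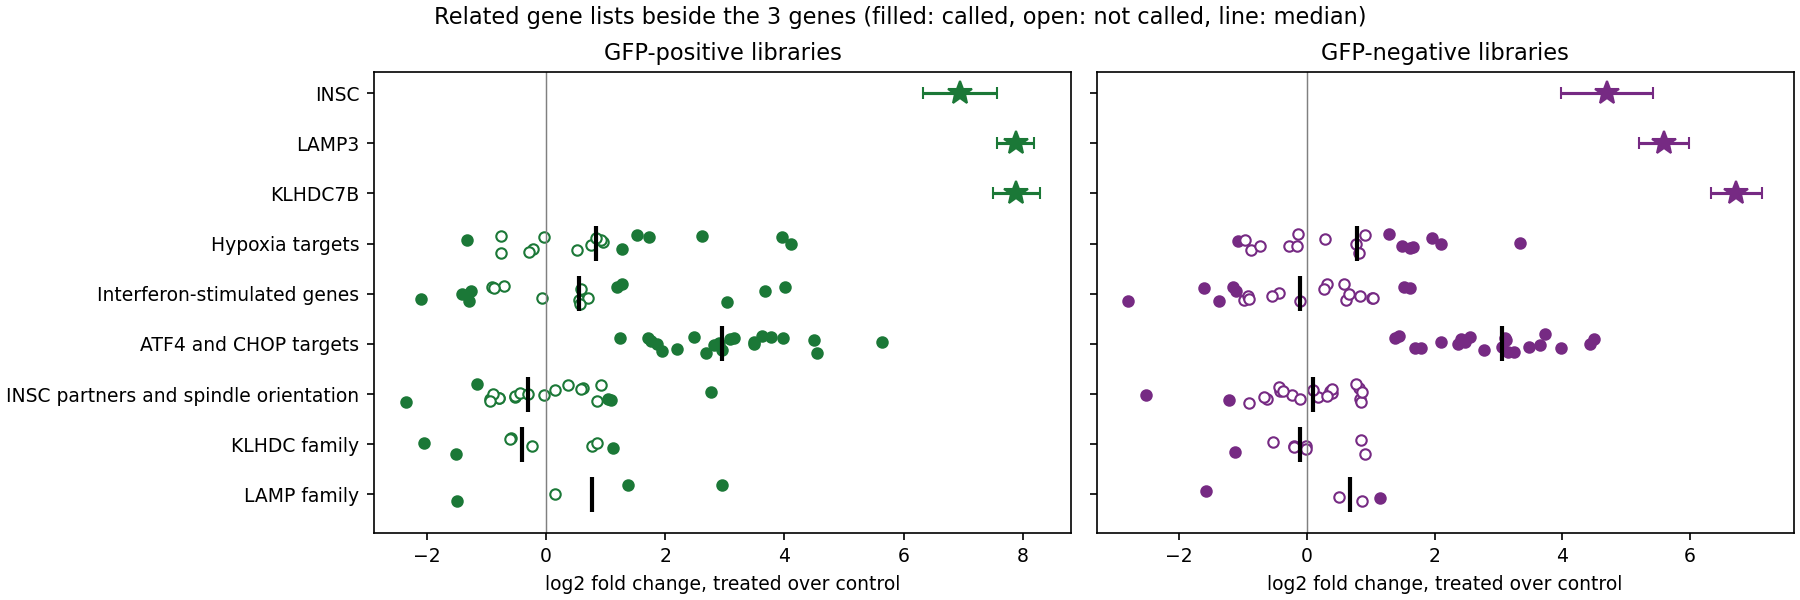
Log2 fold change, treated over control (horizontal axis), in GFP-positive (left) and GFP-negative libraries (right) for the tested genes of 6 lists and for KLHDC7B, LAMP3 and INSC (stars, whiskers for the SE); filled points were called, open points were not, and vertical bars are list medians. KLHDC7B, LAMP3 and INSC lie at 7.89, 7.88 and 6.95 on the left and 6.73, 5.59 and 4.70 on the right. The ATF4 and CHOP targets are all called higher. The KLHDC and INSC partner lists have medians from -0.41 to 0.10, with genes on both sides of 0 and some called.

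The surroundings of the 3 genes differed in what was called, though those of INSC and LAMP3 held only 3 tested genes each. Around INSC, 3 of the 5 annotated genes whose start lies within 250 kb were in the table, and all 3 were called higher in both fractions. Of all genes, 8.59% were called higher in GFP-negative and 12.8% in GFP-positive cells. CALCA, which encodes calcitonin and the neuropeptide CGRP, starts 140.1 kb upstream. It had 0, 4 and 1 counts in control and 173, 157 and 269 in treated GFP-positive libraries, and 8, 11 and 12 in control and 244, 227 and 369 in treated GFP-negative libraries.

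CALCA rose by log2 fold changes of 6.68 in GFP-positive and 4.88 in GFP-negative cells. CALCB, the second CGRP gene, starts 207.4 kb upstream and went from 1.02 to 61.4 CPM and from 1.31 to 36.6 CPM in these fractions (5.96 and 4.77). CALCA and CALCB are close paralogs, so reads may be split between them. CYP2R1, the vitamin D 25-hydroxylase, starts 220.2 kb upstream and rose by 2.04 in both fractions, from 6.60 to 25.9 CPM and from 4.02 to 16.8 CPM.

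Around KLHDC7B, 22 of 36 annotated genes were in the table. In GFP-negative cells 3 of 18 tested were called higher and 1 lower, against 8.59% and 9.75% of all genes. In GFP-positive cells 3 of 19 were called higher and 3 lower, shares near the 12.8% and 11.2% of all genes. Without control GFP-negative replicate 3 the count of higher genes in that fraction was 5 of 19. MIOX, the inositol oxygenase, starts 59.1 kb upstream and rose by 5.30 in GFP-positive and 3.80 in GFP-negative cells. ADM2, counted above among the ATF4 targets, starts 64.4 kb upstream and rose by 3.98 (3.89 to 58.5 CPM) and 4.43 (4.07 to 89.1 CPM).

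ACR, the acrosin gene of sperm, 192.3 kb downstream, stayed under 1 CPM but was called higher in both (2.15 in GFP-positive and 1.96 in GFP-negative cells). The transcript CHKB-DT fell by 1.97 and 1.26 on the log2 scale. The GFP-negative call of ACR was lost with DESeq2, with no filter and without control replicate 2 or any 1 treated replicate (adjusted p from 0.062 to 0.097), and that of CHKB-DT with no filter and without control replicate 1 or 2 or any 1 treated replicate (0.054 to 0.103). PLXNB2, a semaphorin receptor, and ARSA, a lysosomal sulfatase, fell in GFP-positive cells by 1.20 and 1.06. The nearest genes with counts were ODF3B, 13.4 kb upstream (0.78 in GFP-negative cells, not called), and SYCE3, 17.0 kb downstream, which was too low to test in that fraction and at 0.63 in GFP-positive cells (not called).

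Around LAMP3, 3 of 8 annotated genes were in the table and 0 were called in either fraction by edgeR or DESeq2. Of all genes, 8.59% and 9.75% were called higher and lower in GFP-negative cells, and 12.8% and 11.2% in GFP-positive cells. With 3 genes, 0 calls cannot be told apart from those shares. At an unadjusted p under 0.05 there were 0 in GFP-negative cells and 1 in GFP-positive cells. B3GNT5, a glycosyltransferase, stood at 0.14 in GFP-negative and 0.08 in GFP-positive cells (log2 fold changes). MCCC1, a subunit of a mitochondrial carboxylase, stood at 0.04 and 0.08, and DCUN1D1, of the neddylation machinery, at 0.28 and 0.61 (edgeR adjusted p = 0.014 in the latter).

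**Figure D4:**
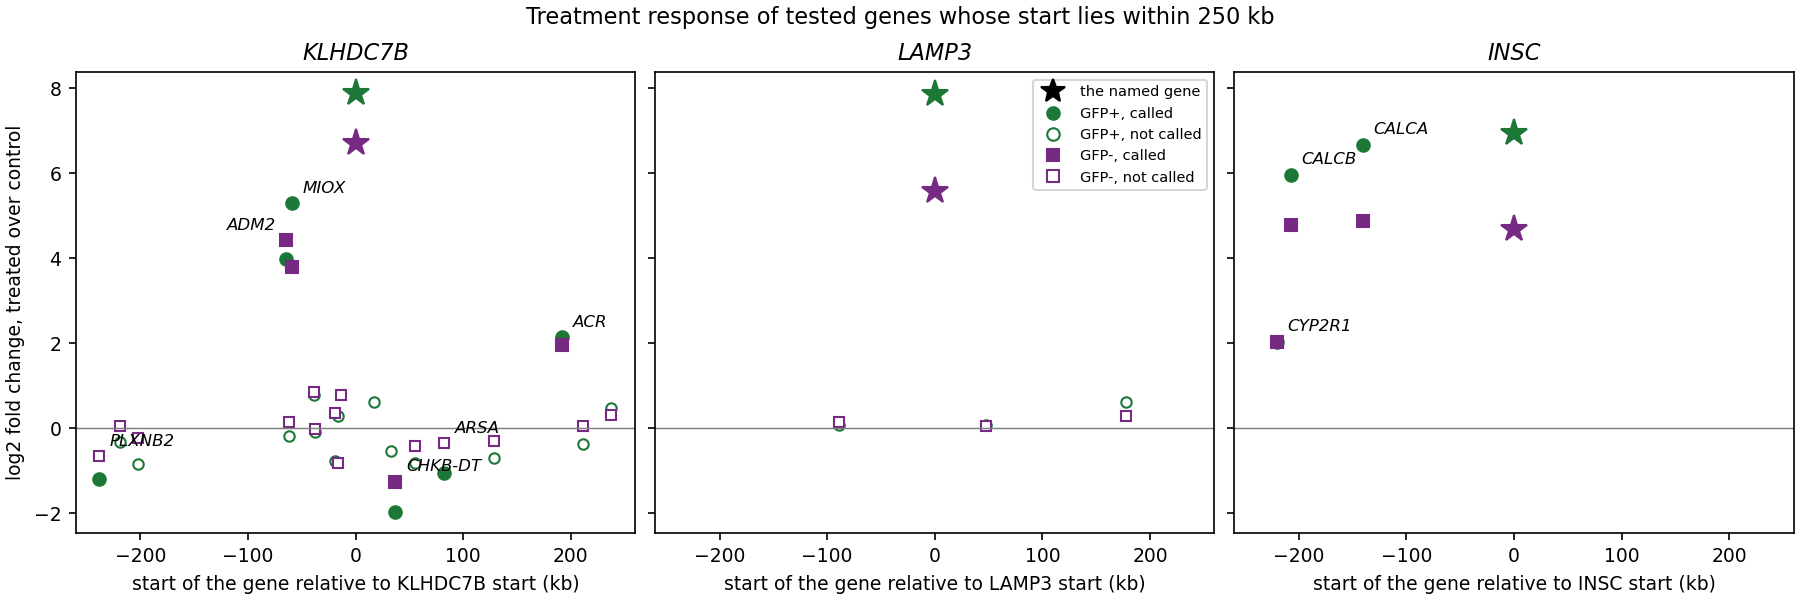
Log2 fold change, treated over control (vertical axis), against the distance of each tested gene's start from the start of KLHDC7B, LAMP3 or INSC (horizontal axis, kb, positive downstream); circles are GFP-positive and squares GFP-negative cells, filled when called, and stars mark the named gene. CALCA, CALCB and CYP2R1 rose upstream of INSC, MIOX and ADM2 rose upstream of KLHDC7B, and the 3 neighbours of LAMP3 lay between 0.04 and 0.61.

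The genes whose pattern was most like each of the 3 were found by Pearson's r of log2 CPM over the 12 libraries, among 14691 genes. Such r mostly reflects the difference between treated and control libraries, which these libraries share, and is given as a description. For KLHDC7B they were the transcription factor ATF5 (r = 0.99), the thrombin receptor family member F2RL2 (0.98), the amino acid transporter SLC7A5 (0.98), LAMP3 itself (0.98) and the glycine transporter SLC6A9 (0.98). For LAMP3 they were F2RL2, ATF5, the noncoding RNA TUNAR, the death receptor TNFRSF10B and the arginine transporter SLC7A3, all at 0.99.

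For INSC the nearest were the fatty acid transport protein SLC27A2 (0.98), its neighbour CALCB (0.97), the flippase ATP9B (0.97), the cAMP-responsive factor CREM (0.97) and ATF5 (0.96). F2RL2 went from 29, 28 and 21 counts to 460, 426 and 420 counts in GFP-negative cells and from 8, 12 and 4 to 788, 685 and 784 in GFP-positive cells. Over all 12 libraries r was 0.98 for KLHDC7B and LAMP3, 0.95 for KLHDC7B and INSC and 0.95 for LAMP3 and INSC. Within the 6 treated libraries the same pairs had r of 0.67, -0.34 and -0.47. Those 6 mix the sort fractions, between which INSC differed. As deviations from group means, which take out that difference, the pairs had r of 0.62, 0.60 and 0.55. Many genes had a higher r: among 14691 genes the second of each pair ranked 1281, 1469 and 965 in likeness to the first. The first ranked 527, 318 and 539 in likeness to the second. These deviations include the control libraries, where the few counts of the 3 genes make log2 CPM imprecise.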

How the data were processed

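The authors joined the lanes of each library, checked reads with FASTQC and aligned them to hg38 (HISAT2, single-end, reverse strand, Ensembl annotation). featureCounts is named in the submitters' processing notes, and its strand setting is not given in the sources used here. The deposited values are raw counts per gene symbol, without normalization. Groups and replicate numbers came from the labels, and every column was used.

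The genes, gene lists and alternatives were chosen with earlier results of these data known. Treatment was tested within each fraction (edgeR 4.0.16, R 4.3.3): TMM scaling, filterByExpr (minimum count 10, total 15), quasi-likelihood test and Benjamini-Hochberg adjustment over all genes tested. A call required a 2-fold change and an adjusted p below 0.05. Printed CPM use TMM over 12 libraries, and log2 CPM a prior count of 0.5. Totals of 23414935 to 38347050 counts set the precision. Ratios of summed counts have exact conditional binomial 95% intervals. Positions came from GENCODE release 44, an annotation other than the authors', which matched 25763 of 28278 symbols.

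Named genes were, per list, up to 4 called genes with the largest change in each fraction, all LAMP genes, called or nearest neighbours, the 5 genes most like each member, genes next in order and the highest of those rising from near silence. GPSM2, PARD3, KLHDC7A, CCR7, CD83, CD74, PTPRC, LDHA and PFKFB4 were named after their values were seen. UNC5B-AS1 is antisense and may share reads with its partner. Alternatives were DESeq2 1.42.0, RLE scaling, library size alone, other filters, a replicate block, a fit of 12 libraries and each library left out. Fits were tested on simulated data. Plots used matplotlib 3.10.9 (Python 3.11.15). A gene that the naming rule picks is not reported here. GFP-positive and GFP-negative libraries of 1 treatment and number were taken as sorts of 1 culture. Across genes, which are not independent replicates, departures from group means had r of 0.225, 0.0747 and 0.168 (control pairs) and 0.146, 0.188 and 0.285 (treated pairs).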

Additional observations from a re-analysis of the deposited data

Results flagged for a closer look

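OLIG2, a progenitor factor in the marker lists, moved in opposite directions in the sort fractions. It was higher in all treated than in all control GFP-positive libraries (3.14 ± 0.535 to 5.88 ± 0.738 CPM, SD, n = 3, log2 fold change 0.97) and lower in all treated than in all control GFP-negative libraries (19.1 ± 3.60 to 11.8 ± 0.533 CPM, SD, n = 3, log2 fold change -0.71). Neither change reached a fold of 2, and the difference between the fractions was not tested. Groups of 3 libraries were too small to look for single outlying libraries by rule.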

How the results depend on the processing

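KLHDC7B, LAMP3 and INSC stayed called higher in GFP-negative cells under DESeq2, RLE scaling, library size alone, no filter, the fit of 12 libraries and every library left out, except that a minimum of 10 counts in every library removed KLHDC7B and INSC from the test, and all 3 genes in GFP-positive cells. Leaving out 1 library gave 6.43 to 7.48 for KLHDC7B, 5.27 to 6.14 for LAMP3 and 4.08 to 5.89 for INSC. In GFP-positive cells it gave 7.30 to 9.01, 7.63 to 8.19 and 6.42 to 9.63, the last for INSC without control GFP-positive replicate 2, which held its only control counts there. The number of genes rising from near silence was 20 with a control limit of 0.1 CPM, INSC alone of the members among them, and 182 with 0.5 CPM. Leaving out 1 library gave 1046 to 1624 genes called higher and 1121 to 1636 lower in GFP-negative cells, and 1785 to 2100 and 1550 to 1920 in GFP-positive cells. Library size alone moved the median of all genes in GFP-positive cells from 0.03 to 0.14.

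KLHDC1 in GFP-negative cells, at -0.01, changed sign to 0.028 with the replicate block, 0.0052 in the fit of 12 libraries, 0.49 without control replicate 3 and 0.17 without treated replicate 1, and leaving out 1 library gave -0.27 to 0.49. The cause was not tested. Other calls in GFP-negative cells were lost for FRMPD1 when treated replicate 1 or 2 or control replicate 2 was left out (edgeR adjusted p of at least 0.064), for OAS1 (0.060 to 0.084) in the fit of 12 libraries and without control replicate 3 or any 1 treated replicate, and for IRF7 (0.067 to 0.089) without treated replicate 1 or 3. The fold of 2 was missed by LAMP2 without control replicate 1 (0.93), by KLHDC8A (-0.87) and PARD6G (-0.997) without treated replicate 3, and in GFP-positive cells by ARSA with library size alone (-0.95) or without treated replicate 3 (-0.87) and by PARD6B without control replicate 1 (0.92) or treated replicate 1 (0.99). The 5 genes most like each member depended on the measure: deviations from group means kept 0 of 5 for each.

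Whether replicate numbers pair treated with control libraries could not be settled from these values. Across 16226 genes, deviations from group means correlated at -0.0467, 0.265 and 0.0517 for numbers 1 to 3 in GFP-negative cells. In GFP-positive cells they correlated at -0.00811, 0.0756 and 0.109. In GFP-negative cells 2 of 3 treated and 1 of 3 control libraries correlated best with their own number. For GFP-positive cells this held for 2 of 3 treated and 2 of 3 control libraries. With the replicate block KLHDC7B, LAMP3 and INSC stood at 6.81, 5.66 and 4.79 (edgeR adjusted p = 0.00015, 0.00019 and 0.0033), and 1288 genes were called higher and 1406 lower in GFP-negative cells, against 1332 and 1512 without it. In GFP-positive cells the block gave 1944 higher and 1708 lower, against 1959 and 1716.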
